A study of Homo sapiens with 6 samples.

Results

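The desmosomal genes of HaCaT keratinocytes were followed in 3 WT and 3 *FGFR2* KO cell lines. The genes are the desmogleins *DSG1*, *DSG2* and *DSG3*, the desmocollins *DSC1*, *DSC2* and *DSC3*, desmoplakin (*DSP*), plakoglobin (*JUP*) and the plakophilins *PKP1* and *PKP3*. Members were matched by Ensembl gene ID and GENCODE symbol, and all 10 were found among the 21475 genes of the tables. HaCaT is an immortalized keratinocyte line from human skin, and all lines were kept in the same serum-containing medium. In KO lines, *FGFR2*, the gene for a receptor of fibroblast growth factors, had been targeted with CRISPR/Cas9, and lines were then grown from sorted single cells. The guide cut in exon 7, and the KO lines are clones. The study describes its WT lines as clones apart from 1, the uncloned starting population, and in another place calls the sequenced WT lines clonally expanded, so that a WT library may come from an uncloned population. The labels give no agent or treatment for either group. Each line gave 1 library, so that a difference between a WT and a KO line also holds whatever else differs between lines. The level of each gene is given as FPKM, the fragments of a gene per kilobase of its length and scaled to the total fragments of its library.

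Desmosomes are the button-like junctions that hold keratinocytes together and anchor their keratin filaments. Desmogleins and desmocollins are cadherins that bind across the gap between neighbouring cells. Inside the cell, plakoglobin and the plakophilins bind the cadherin tails, and desmoplakin ties this plaque to keratin. In epidermis the cadherins change with the layer: *DSG3* and *DSC3* are strong in the lower layers, *DSG1* and *DSC1* mark the differentiating upper layers, and *DSG2* and *DSC2* are widely expressed in epithelia. *DSG1* and *DSG3* encode the main autoantigens of pemphigus.

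The labelled genotype and cell type were checked first. *FGFR2* was at 21.6, 39.7 and 15.02 FPKM in the WT and at 3.04, 2.26 and 4.31 FPKM in the KO lines, here and below in the order of replicates 1, 2 and 3, so that all KO lines lay below all WT lines. The keratinocyte markers *KRT5*, *KRT14*, *TP63*, *KRT15*, *COL17A1* and *SFN* summed to between 15436 and 27406 FPKM in the 6 libraries. Melanocyte markers summed to between 0.708 and 2.44 FPKM and immune markers to between 0.124 and 0.459 FPKM, with *TYROBP* listed at 0 throughout. Fibroblast markers summed to 7.95 to 33.2 FPKM in WT and 6.90 to 12.6 FPKM in KO libraries, and endothelial markers to 18.2 to 27.3 and 5.85 to 17.5 FPKM. *COL1A1* and *VWF* were their most abundant genes, whereas *COL3A1*, *PDGFRA* and *EMCN* were at or near 0. WT replicate 2 differed from the other libraries in *DCN* (15.5 FPKM, at most 1.66 elsewhere) and *CDH5* (4.92 FPKM, at most 0.128 elsewhere). Mitochondrial genes held 21.5% to 27.6% of the FPKM in the WT and 15.8%, 23.7% and 11.9% in the KO lines. *VWF* was lower in each KO line than in each WT line (limma, adjusted p = 0.330). A scaling to nuclear genes, which leaves the mitochondrial genes out, is among the alternatives given below. Otherwise the part of these differences in the results below was not tested.

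The 6 cadherin genes lie side by side on chromosome 18, from 30989365 to 31549008 in GRCh38, in a stretch of 559.6 kb. The desmocollins occupy its proximal end in the order *DSC3* (30989365 to 31042815), *DSC2* (31058840 to 31102522) and *DSC1* (31129236 to 31162856), all on the minus strand. The desmogleins follow on the plus strand, with *DSG1* (31318160 to 31359246), *DSG3* (31447741 to 31478702) and *DSG2* (31498177 to 31549008), and *DSG4* between *DSG1* and *DSG3*. Apart from *DSG4*, no other gene of the tables falls within this stretch. The plaque genes are scattered, with *DSP* on chromosome 6 (7541338 to 7586714), *JUP* on chromosome 17 (41754604 to 41786931), *PKP1* on chromosome 1 (201283452 to 201332993) and *PKP3* on chromosome 11 (392614 to 404908).

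The promoters of the 3 desmogleins are shown because these neighbours differed across the lines, *DSG2* in its order of the lines and *DSG1* and *DSG3* in how far they varied. Each sequence is the 250 bases before the RefSeq start site, in the direction of transcription, from GRCh38.p14. *DSG1* is chr18:31317910-31318159, *DSG3* is chr18:31447491-31447740 and *DSG2* is chr18:31497927-31498176, all on the plus strand. Capitals mark the longest run of bases that *DSG1* and *DSG3* have in common.

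DSG1: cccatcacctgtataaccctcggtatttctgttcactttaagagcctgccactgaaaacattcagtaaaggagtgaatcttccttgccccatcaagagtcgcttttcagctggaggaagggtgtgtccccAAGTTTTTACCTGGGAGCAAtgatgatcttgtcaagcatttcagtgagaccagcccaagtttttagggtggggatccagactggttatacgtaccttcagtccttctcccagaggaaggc

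DSG3: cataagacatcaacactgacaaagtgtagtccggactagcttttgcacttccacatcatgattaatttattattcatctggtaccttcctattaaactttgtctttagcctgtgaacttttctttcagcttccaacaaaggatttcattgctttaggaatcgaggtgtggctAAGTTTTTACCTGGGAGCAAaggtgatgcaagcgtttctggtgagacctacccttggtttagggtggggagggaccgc

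DSG2: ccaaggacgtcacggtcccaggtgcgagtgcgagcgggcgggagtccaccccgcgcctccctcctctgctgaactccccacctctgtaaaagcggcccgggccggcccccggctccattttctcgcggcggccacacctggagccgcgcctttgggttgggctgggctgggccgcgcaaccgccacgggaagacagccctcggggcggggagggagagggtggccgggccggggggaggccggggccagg

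The shared run AAGTTTTTACCTGGGAGCAA is 20 bases long and lies 120 to 101 bases before the start of *DSG1* and 78 to 59 bases before that of *DSG3*. RefSeq promoter windows were found for 9 of the 10 members, 11 windows in all. In 53 comparisons of windows of different members, on either strand, only the longest run of each pair of windows was kept. Outside the pair of *DSG1* and *DSG3*, the longest had 12 bases, between *DSP* and *DSG2*. Further, shorter runs shared by *DSG1* and *DSG3* were not listed. Searched on both strands, the run of 20 occurred in 2 of the 35116 windows available (0.0057%), which were those of *DSG1* and *DSG3*. No window was available for *PKP3* or for *DSG4*, the desmoglein between *DSG1* and *DSG3*, so that neither was searched. The windows also differed in base composition, with 48.0% G and C in *DSG1*, 42.8% in *DSG3* and 52.0% in *DSC1*, against 75.2% in *DSG2* and 78.0% in *DSP*. The others lay between, with *DSC3* at 60.4%, *DSC2* at 59.6% and 66.8%, *JUP* at 63.6% and 66.0% and *PKP1* at 67.6%. The median of all windows was 58.0%. *DSG1* and *DSG3*, the pair with the shared run, differed in how far they varied: the highest library exceeded the lowest 42.1-fold for *DSG1* and 1.74-fold for *DSG3*.

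The plaque genes were expressed above the cadherins. *JUP*, whose product is shared with adherens junctions, had the highest level of the 10 genes, with a mean of 1442 FPKM over the 6 libraries. *PKP1* (506 FPKM), the main plakophilin of differentiated epidermis, and *PKP3* (468 FPKM) followed, and their order was not fixed, since *PKP1* was the lower of the pair in WT replicate 2 and KO replicate 3. *DSP*, the link to keratin, had a mean of 279 FPKM and exceeded each cadherin in 5 of 6 libraries, the exception being KO replicate 3, where *DSG2* was higher. Among the cadherins, *DSC3* came first (178 FPKM), ahead of *DSG3* (131 FPKM) in each library. *DSG3* and *DSG2* (128 FPKM) were not separated, with *DSG2* above *DSG3* in 3 of 6 libraries. *DSC2* (36.8 FPKM) lay above *DSG1* (20.2 FPKM) in every library, and *DSC1* (1.89 FPKM) was the lowest of the 10 in every library. Levels of different genes were compared on the FPKM scale, which is per length, and no test was run between genes.

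**Figure D1:**
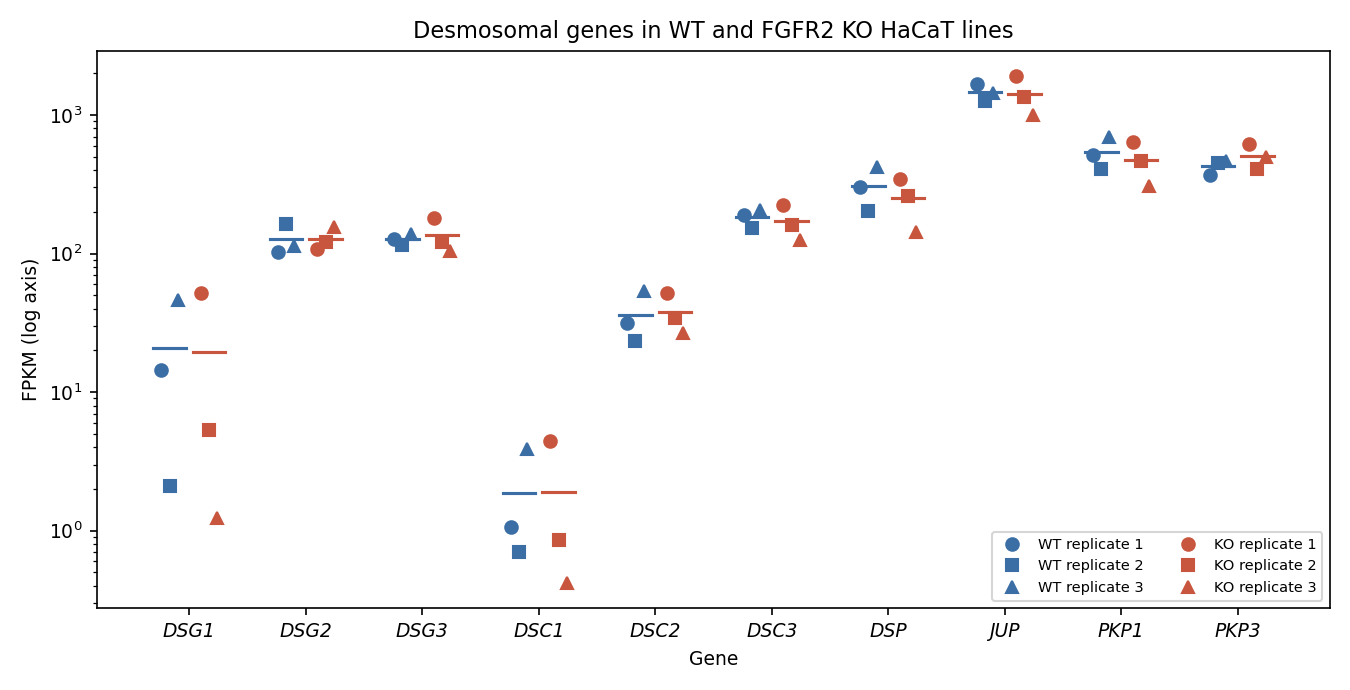
FPKM of the 10 desmosomal genes on a log axis, 1 point per library, with WT in blue, KO in red, a symbol for each replicate number and a bar at the group mean. WT and KO points overlap for each gene, and *DSG1* and *DSC1* spread most, from 1.24 to 52.0 and from 0.422 to 4.41 FPKM.

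To determine whether loss of FGFR2 changed desmosomal genes, KO and WT libraries were compared with limma on log2(FPKM + 0.5). All 10 members passed the filter of a mean of at least 0.5 FPKM and were among the 12241 genes tested. None of the 10 was called at an adjusted p of at most 0.05 and a log2 difference of at least 0.5 in size; of all tested genes 0% were called. At an unadjusted p of at most 0.05 and the same log2 difference, 0 of the 10 members were past the threshold, where 12.5% of all tested genes were (1251 higher and 285 lower in KO). For none of the 10 did the KO libraries lie wholly above or wholly below the WT libraries, as they did for 24.1% of all tested genes. The log2 difference was negative for 6 members and positive for 4, and its median was -0.10, against 0.09 over all tested genes. With 3 libraries per group, an exact permutation test of a single gene cannot give a p below 0.1. *FGFR2* itself, the targeted gene, was not called in the limma fit (log2 difference -2.73, limma, adjusted p = 0.261). Having no calls therefore does not show that the members were unchanged. The p-values measure the spread between these cell lines.

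Both upper-layer cadherins had nearly equal means in the groups and a spread as large as the mean. *DSG1* (ENSG00000134760) was at 14.4, 2.10 and 45.9 FPKM in the WT and at 52.0, 5.36 and 1.24 FPKM in the KO lines. Each group thus held libraries with high and with very low *DSG1*. The WT lines averaged 20.8 ± 22.6 FPKM and the KO lines 19.53 ± 28.2 FPKM (SD, n = 3 each). The log2 difference was -0.59 with a 95% confidence interval of -3.79 to 2.62 (limma, adjusted p = 0.848). *DSC1* (ENSG00000134765) was at 1.07, 0.703 and 3.88 FPKM in the WT and at 4.41, 0.859 and 0.422 FPKM in the KO lines. It was high in the same libraries as *DSG1*. Its log2 difference was -0.14 (95% confidence interval -1.77 to 1.49, limma, adjusted p = 0.932), on a scale that understates the change of so low a gene.

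The cadherins of the lower layers varied far less. *DSG3* (ENSG00000134757) was at 127, 116 and 138 FPKM in the WT and at 181, 122 and 104 FPKM in the KO lines. KO replicate 1 lay above all WT lines and KO replicate 3 below them. The log2 difference was 0.06 (95% confidence interval -0.44 to 0.56, limma, adjusted p = 0.907). *DSC3* (ENSG00000134762) was at 190, 154 and 208 FPKM in the WT and at 226, 162 and 125 FPKM in the KO lines, again with KO replicate 1 highest and KO replicate 3 lowest. Its log2 difference was -0.13 (95% confidence interval -0.68 to 0.41, limma, adjusted p = 0.786).

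The widely expressed cadherins did not follow each other. *DSG2* (ENSG00000046604) was at 103, 164 and 114 FPKM in the WT and at 107, 122 and 156 FPKM in the KO lines. Its highest values were those of WT replicate 2 and KO replicate 3, the lines with the least *DSG1*. The WT lines averaged 127 ± 32.4 FPKM and the KO lines 128 ± 25.2 FPKM (SD, n = 3 each), which differed by less than the spread in either group (log2 difference 0.03, 95% confidence interval -0.49 to 0.54, limma, adjusted p = 0.962). *DSC2* (ENSG00000134755) was at 31.4, 23.4 and 53.3 FPKM in the WT and at 52.1, 34.2 and 26.7 FPKM in the KO lines. In contrast to *DSG2*, it was highest in WT replicate 3 and KO replicate 1. Its log2 difference was 0.09 (95% confidence interval -0.70 to 0.89, limma, adjusted p = 0.906).

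In the plaque, *DSP* and *PKP1* had lower means in KO, *PKP3* a higher mean and *JUP* a similar mean, none of them past the test. *DSP* (ENSG00000096696) was at 300.1, 202 and 418 FPKM in the WT and at 348, 262 and 144 FPKM in the KO lines. The lowest value was that of KO replicate 3, and the other KO lines lay within the WT range. The log2 difference of *DSP* was -0.32 (95% confidence interval -1.18 to 0.55, limma, adjusted p = 0.679). *JUP* (ENSG00000173801) was at 1666, 1256 and 1454 FPKM in the WT and at 1912, 1354 and 1008.5 FPKM in the KO lines, with the extremes again in KO replicates 1 and 3. Its log2 difference was -0.07 (95% confidence interval -0.70 to 0.55, limma, adjusted p = 0.905).

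*PKP1* (ENSG00000081277) was at 517, 411 and 692 FPKM in the WT and at 643, 465 and 306 FPKM in the KO lines. It was lowest in KO replicate 3 (log2 difference -0.23, 95% confidence interval -0.94 to 0.49, limma, adjusted p = 0.718). *PKP3* (ENSG00000184363), the plakophilin found in all epidermal layers, was at 369, 453 and 464 FPKM in the WT and at 615, 408 and 499.6 FPKM in the KO lines. KO replicates 1 and 3 lay above the WT range and KO replicate 2 inside it. With a log2 difference of 0.23 (95% confidence interval -0.23 to 0.69, limma, adjusted p = 0.559), *PKP3* had the smallest p of the 10 members (unadjusted p = 0.276, limma).

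**Figure D2:**
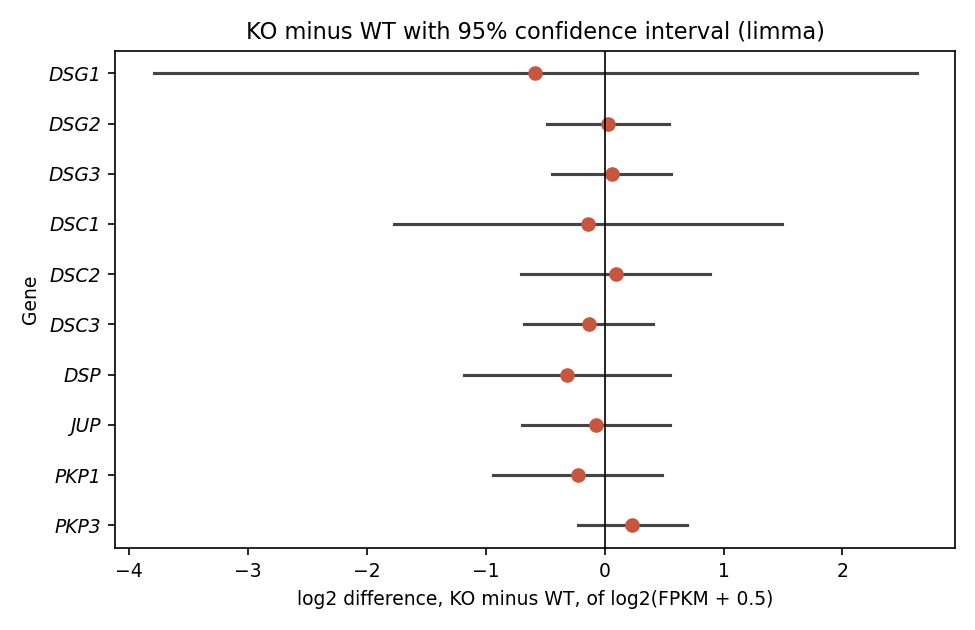
Log2 difference between KO and WT (KO minus WT, on log2(FPKM + 0.5)) for each gene, as a point with its 95% confidence interval from limma. Each interval includes 0, and the interval of *DSG1* is the widest, from -3.79 to 2.62.

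The lines differed from each other within each group, and most members did so in a common order. *DSG1*, *DSG3*, *DSC1* and *DSC3* ranked the 6 libraries identically, from KO replicate 1 over WT replicate 3, WT replicate 1, KO replicate 2 and WT replicate 2 down to KO replicate 3. This exact order was that of 4 of 10 members and of 0.327% of all tested genes (40 of 12241). *DSP* and *PKP1* had the same order with KO replicate 1 and WT replicate 3 exchanged, and *JUP* had it with WT replicates 1 and 3 exchanged. KO replicate 1 and WT replicate 3 on top together with WT replicate 2 and KO replicate 3 at the bottom was seen in 7 of 10 members and in 2.07% of tested genes. These shares are descriptions, since the orders were looked at after the values had been seen, and the member counts of 4 and 7 were the same under TPM, median-of-ratios and nuclear-gene scaling. The members that departed from this order were *JUP*, *DSG2* and *PKP3*. *DSG2* was highest in WT replicate 2 and KO replicate 3 and lowest in KO replicate 1 and WT replicate 1, and *PKP3* was highest in KO replicates 1 and 3. In bulk RNA, fewer cells that express a gene and less RNA of it per cell cannot be told apart.

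The size of the variation fell from the upper-layer cadherins to the lower-layer cadherins. On the log2 scale, the SD within groups was 2.30 for *DSG1*, larger than for 99.97% of tested genes, and 1.13 for *DSC1* (98.4%). It was 0.59 for *DSP* (92.1%), 0.54 for *DSC2* (90.3%) and 0.46 for *PKP1* (86.1%). For *JUP*, *DSC3*, *DSG2* and *DSG3* it was between 0.30 and 0.36, and for *PKP3* it was 0.25, close to the median gene (52.5%). Within the WT lines alone *DSG1* varied 21.8-fold and *DSG3* 1.19-fold, and within the KO lines 42.1-fold and 1.74-fold.

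**Figure D3:**
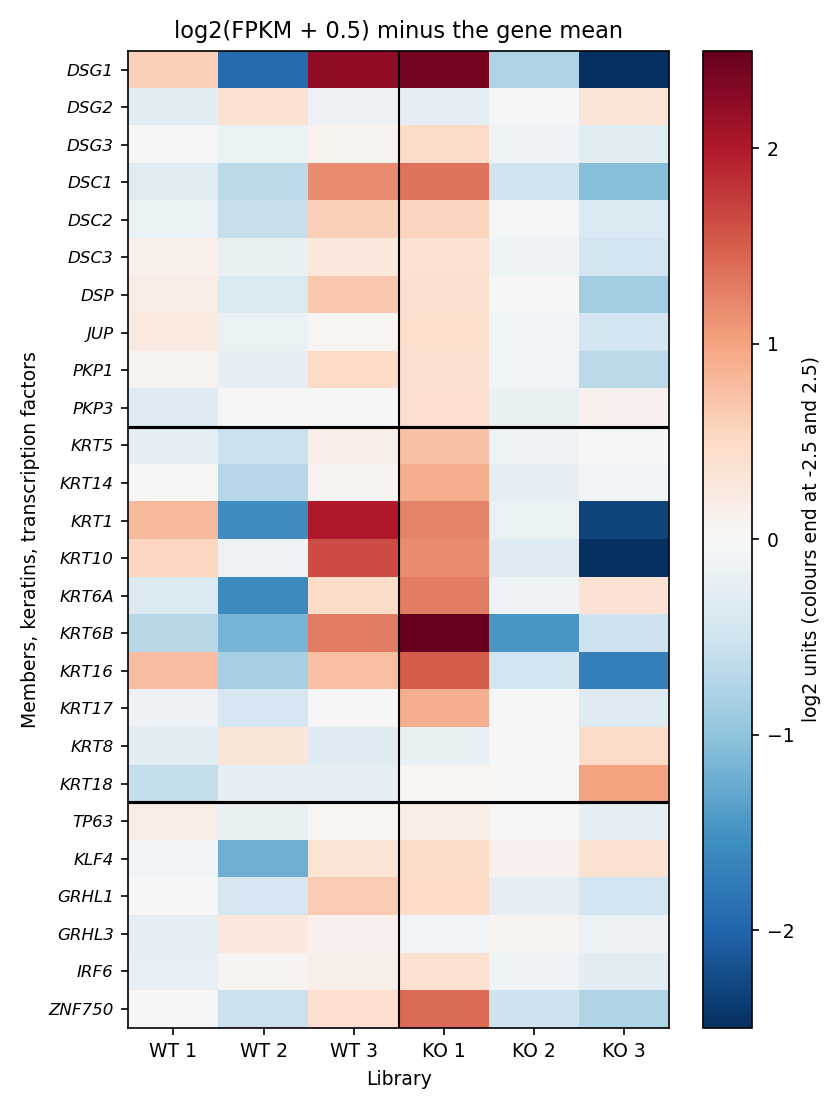
Log2(FPKM + 0.5) of each gene minus its mean over the 6 libraries, for the 10 members (top), 10 keratins (middle) and 6 transcription factors (bottom), with a vertical line between WT and KO. Red in WT replicate 3 and KO replicate 1 with blue in WT replicate 2 and KO replicate 3 recurs in *DSG1*, *DSC1*, *KRT1* and *KRT16*. *KRT10* shares it except in WT replicate 2, where it is near its mean (-0.12) and above KO replicate 2 (-0.32). *DSG2* and *KRT8* show the reverse in WT replicate 2 and KO replicate 3.

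Because FPKM is per length, the isoform makeup of each cadherin subfamily can be given within a library, where no scaling between libraries enters. *DSG1* made up 5.89%, 0.746% and 15.4% of the FPKM summed over *DSG1*, *DSG2* and *DSG3* in the WT and 15.3%, 2.15% and 0.472% in the KO lines. *DSG4*, which is not a member, was left out of this sum, although it exceeded *DSG1* in 4 of 6 lines. The rest of the sum was divided between *DSG3*, with 39.8% to 53.2%, and *DSG2*, with 31.5% to 59.8%. *DSG2* was the most abundant of the 3 desmogleins in WT replicate 2 (58.2%), KO replicate 3 (59.8%) and, by a small margin, KO replicate 2 (49.0% against 48.8% for *DSG3*), and *DSG3* in the other 3 lines. Among desmocollins *DSC3* led in each line, with 78.4% to 86.5%, followed by *DSC2* with 13.1% to 20.1% and *DSC1* with 0.276% to 1.56%.

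The upper-layer cadherins *DSG1* and *DSC1* together made up 3.32%, 0.611% and 8.84% of the FPKM summed over the 6 cadherin members, again without *DSG4*, in the WT and 9.06%, 1.39% and 0.400% in the KO lines. The groups overlapped, with means of 4.26 ± 4.195% and 3.62 ± 4.74% (SD, n = 3 each; two-sided exact permutation test, p = 0.9). None of the 6 isoform shares within subfamilies gave a lower exact permutation p than 0.4 (*DSC2*, two-sided, n = 3 each), where 0.1 is the smallest possible.

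**Figure D4:**
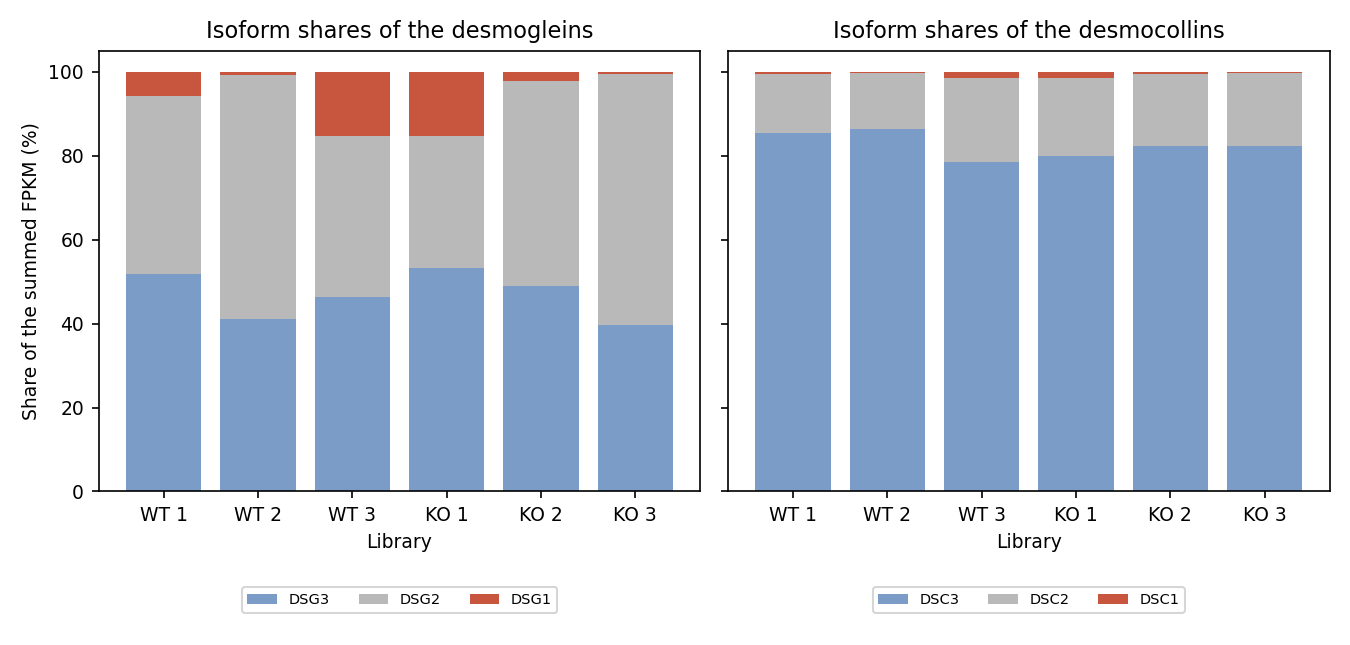
Share of each isoform in the summed FPKM of *DSG1*, *DSG2* and *DSG3* (left, without *DSG4*) and of the desmocollins (right), 1 bar per library. The *DSG1* share is 15.4% in WT replicate 3 and 15.3% in KO replicate 1, and below 1% in WT replicate 2 and KO replicate 3.

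The plaque genes were also set against the sum of the 6 cadherin members. This sum was 468, 460 and 562 FPKM in the WT and 622, 446 and 414 FPKM in the KO lines (two-sided exact permutation test, p = 1). The sum of *PKP1* and *PKP3* was 1.88 to 2.06 times the cadherin sum in all 6 lines, the narrowest of these ratios. *JUP* was 2.44 to 3.56 times and *DSP* 0.348 to 0.744 times the cadherin sum. Within the plakophilins, the ratio of *PKP1* to *PKP3* was 1.40, 0.907 and 1.49 in the WT and 1.04, 1.14 and 0.612 in the KO lines (two-sided exact permutation test, p = 0.3), again lowest in KO replicate 3 and next lowest in WT replicate 2.

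Other desmosome genes were examined as a list of 7, of which 6 were tested and 0 called. At the unadjusted threshold 1 of the 6 was higher and 0 lower in KO (1251 and 285 of all 12241 tested genes). This was *PKP2*, the plakophilin of simple epithelia and heart, at 26.0, 25.0 and 28.0 FPKM in the WT and 30.8, 38.9 and 67.5 FPKM in the KO lines, with each KO line above each WT line (log2 difference 0.71, 95% confidence interval 0.08 to 1.34, limma, unadjusted p = 0.0319, adjusted p = 0.273). *PKP2* therefore did not pass the adjusted threshold. *PKP4*, a relative of the plakophilins, also had all KO values (54.7 to 59.2 FPKM) above all WT values (41.8 to 54.1 FPKM), with a log2 difference of 0.26 (limma, adjusted p = 0.378). Of all 12241 tested genes, 2245 had every KO value above every WT value. *DSG4* and *PERP*, which encodes a membrane protein of desmosomes, overlapped between the groups, with log2 differences of -0.51 and -0.13. *CDSN*, for the corneodesmosin of the stratum corneum, was at 0.487 FPKM or less in each line and was not tested.

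The keratins that desmoplakin anchors, 10 genes, were all tested and none was called. The suprabasal pair *KRT1* and *KRT10* resembled *DSG1*. *KRT1* was at 2254, 435 and 5121 FPKM in the WT and at 3024, 1145 and 259 FPKM in the KO lines, the same library order as *DSP* and *PKP1*. *KRT10* was at 956, 607 and 2056 FPKM in the WT and at 1503, 530.0 and 86.2 FPKM in the KO lines, with the highest and lowest lines being those of *KRT1*. Neither differed between the groups beyond the spread (log2 differences -0.83 and -1.37, limma, adjusted p = 0.709 and 0.481). *KRT6A*, a keratin of activated epidermis, had a log2 difference of 1.01 (limma, adjusted p = 0.387), and its reads may be shared with close relatives such as *KRT6B*. *KRT18*, a keratin of simple epithelia, was at 103, 133 and 133 FPKM in the WT and at 161, 157 and 315 FPKM in the KO lines. *KRT18* was higher in each KO line than in each WT line. It was the 1 keratin past the unadjusted threshold (log2 difference 0.70, limma, unadjusted p = 0.0379, adjusted p = 0.280), and, like *PKP2*, was highest in KO replicate 3.

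Adherens junctions share plakoglobin with desmosomes. Of 5 of their genes tested, 0 were called and 0 passed the unadjusted threshold. *CDH1*, the gene of E-cadherin, was at 243, 246 and 235 FPKM in the WT and 222, 213 and 166 FPKM in the KO lines, so that each KO line lay below each WT line (log2 difference -0.28, limma, adjusted p = 0.386). Of all 12241 tested genes, 706 had every KO value below every WT value. *CTNNB1*, the gene of beta-catenin, was at 32.9, 40.4 and 38.5 FPKM in the WT and 43.7, 35.4 and 64.9 FPKM in the KO lines (log2 difference 0.32, limma, adjusted p = 0.484). *CDH3* and *CTNND1* also overlapped between the groups, with log2 differences of 0.19 and -0.12.

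Genes that act on the cadherins after translation or on their transcription were given by lists as well. Of the proteases *KLK5*, *KLK7* and *KLK14*, which cleave desmosomal cadherins during shedding, and their inhibitor gene *SPINK5*, 0 of 4 were called, with log2 differences between -0.50 and 0.56. *KLK14* had the first 4 libraries in the order of *DSG1* and the last 2 exchanged, at 1.67, 0.902 and 5.15 FPKM in the WT and 7.70, 1.42 and 0.970 FPKM in the KO lines. Of 6 epidermal transcription factors 0 were called. *ZNF750*, a regulator of terminal differentiation, had the library order of *DSG1*, at 0.727, 0.339 and 1.13 FPKM in the WT and 2.76, 0.353 and 0.227 FPKM in the KO lines. *GRHL1*, which is known to act on *DSG1*, had that of *DSP*, at 15.6, 11.6 and 24.5 FPKM in the WT and 22.5, 13.3 and 11.1 FPKM in the KO lines. *KLF4* had the largest log2 difference of this list (0.63, limma, adjusted p = 0.410), and that of *GRHL3* was -0.08. Both had other library orders. *KLF4* was highest in KO replicates 1 and 3 and lowest in WT replicate 2, and *GRHL3* was highest in WT replicate 2 and lowest in WT replicate 1. *TP63*, the master regulator of keratinocytes, varied 1.34-fold in all.

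The chromosome and the neighbours of the cadherin cluster were described as well. Over the 173 tested genes of chromosome 18, the median deviation of a library from the mean of all 6, relative to the median gene of that library, lay between -0.06 and 0.06 on the log2 scale. Chromosome 17, which holds *JUP*, ranged from -0.25 in WT replicate 3 to 0.11 in KO replicate 2. Chromosome 11, which holds *PKP3*, ranged from -0.10 in WT replicate 3 to 0.24 in WT replicate 2. With chromosome medians removed, the log2 difference of *JUP* went from -0.07 to -0.26. The part of these shifts in the library orders of *JUP* and *PKP3* was not tested. Within the cluster and 1 Mb on either side, 6 genes that are not members were tested. *TRAPPC8*, for a subunit of a vesicle tethering complex, was at 28.0 to 37.3 FPKM in the 6 lines. *RNF125*, for a ubiquitin ligase, varied 8.52-fold, from 0.221 FPKM in WT replicate 2 to 1.88 FPKM in KO replicate 1, with overlapping groups (log2 difference 0.58, limma, adjusted p = 0.468). *GAREM1* had a log2 difference of -0.37 (limma, adjusted p = 0.446). *DSG4* was highest in WT replicate 1 (39.7 FPKM), whereas *DSG1* on its proximal side was highest in KO replicate 1. *RNF138* and *B4GALT6* were past the unadjusted threshold, as were 12.5% of all tested genes, and not the adjusted threshold. Their log2 differences were 0.66 and 0.55. Each had every KO value above every WT value, as had 2245 of all 12241 tested genes.

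Likeness of pattern was measured as the root mean square distance between the log2 values of 2 genes over the 6 libraries, each centred on its own mean. No member had another member among its 3 nearest genes. Among the nearest members, the distance was 0.10 between *JUP* and *DSC3*, 0.12 between *DSG3* and *DSC3* and 0.13 between *DSP* and *PKP1*. *JUP* was the 16th nearest gene of *DSC3*, *DSC3* the 4th nearest of *JUP*, and *PKP1* the 4th nearest of *DSP*, among 12240 genes each. For *DSG2* and *PKP3* the nearest member came only at rank 6069 and 2688, at distances of 0.33 and 0.23. *DSG1* and *DSC1*, which varied most, were farther from their nearest members, at 1.06 and 0.53, but these ranked 30 and 102. The genes nearest to *DSG1* were *SPRR2E* (distance 0.38), *ALOX12B* (0.41) and *OLFM2* (0.42), and those nearest to *DSC1* were *PSORS1C2* (0.17), *KRT2* (0.17) and *KLK14* (0.18). *SPRR2E* encodes a cornified envelope precursor, *ALOX12B* a lipoxygenase of the epidermal lipid barrier and *KRT2* a keratin of the upper epidermis. These names were chosen after their values were seen, and over only 6 libraries many genes come close by coincidence.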

How the data were processed

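RNA of 3 WT and 3 *FGFR2* KO HaCaT lines was sequenced from poly(A)-enriched, strand-specific libraries. The authors trimmed reads with fastp 0.20.0 and quantified them with kallisto 0.46.1 against GRCh38.p13 and GENCODE models. The deposited values are FPKM per gene and library. How they were calculated is not given in the sources used here. The 18 Y copies of pseudoautosomal genes were left out, and 21400 of 21475 genes received a symbol and position from GENCODE release 44.

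Depth was estimated from the steps between low FPKM values of genes with a single transcript, as 81100000, 67700000 and 71400000 fragments in the WT and 87900000, 71400000 and 86800000 fragments in the KO libraries. At these depths 58.9% of the low values were whole fragments within 0.02, against 4% for evenly spread values. The depths were chosen to favour whole fragments, so that 4% is not a chance level for this share. Count models were not used because the deposited values are FPKM.

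After removal of genes averaging under 0.5 FPKM, KO and WT were compared with limma 3.58.1 (R 4.3.3) on log2(FPKM + 0.5), with a mean-variance trend and Benjamini-Hochberg adjustment over the 12241 genes left. The test was checked on simulated data. Shares were compared with exact permutation tests. All 10 members are named, and of each other list up to 4 genes with the largest log2 difference. Members and lists were chosen with earlier results of these data known. *KRT16*, *KRT8*, *TP63* and *CDSN* and the genes near the cluster beyond *DSG4* are further names. Alternatives were other pseudocounts, filters, scalings and empirical Bayes settings, library weights, the replicate number as a block, removal of chromosome medians, and leaving out each library. Promoter sequences are from RefSeq, GRCh38.p14.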

Additional observations from a re-analysis of the deposited data

How the results depend on the processing

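No member was called after adjustment under any of the 19 alternatives. At the unadjusted threshold the count was 0 under 18 of them and 1 with library weights (*PKP3*, log2 difference 0.51), in a fit where WT replicate 1 had a weight of 10.3 against 0.36 for WT replicate 2. That fit called 1396 of the 12241 genes after adjustment, 1160 of them higher in KO, where each other fit called 0, and 2162 genes passed its unadjusted p and size thresholds. The median log2 difference of the members was between -0.23 and 0.20 over all alternatives except without KO replicate 1, where it was -0.33. Over all alternatives, 158 log2 differences of single members kept their direction and 31 did not; *DSC1* was not tested under a filter of 2 FPKM. With library weights, those of *DSG1* (0.27), *DSC1* (0.74), *DSC3* (0.0050) and *PKP1* (0.021) turned positive. With median-of-ratios scaling those of *DSG2* (-0.069), *DSG3* (-0.038) and *DSC2* (-0.0017) turned negative, with quantile normalization the same genes (-0.090, -0.065 and -0.021), scaled to nuclear genes *DSG2* (-0.053) and *DSG3* (-0.022), and with chromosome medians removed *DSG2* (-0.063) and *DSG3* (-0.032). All of these lie within the confidence intervals given above. With each library left out in turn, the log2 difference ranged from -1.93 (without KO replicate 1) to 0.53 (without KO replicate 3) for *DSG1*, from -0.12 to 0.22 for *DSG2*, -0.17 to 0.23 for *DSG3*, -0.85 to 0.42 for *DSC1*, -0.17 to 0.41 for *DSC2*, -0.35 to 0.069 for *DSC3*, -0.60 to 0.039 for *DSP*, -0.31 to 0.15 for *JUP* and -0.48 to 0.051 for *PKP1*. *PKP3* stayed positive throughout. The KO minus WT difference in the share of *DSG1* and *DSC1* went from -3.36 percentage points without KO replicate 1 to 1.66 without WT replicate 3.

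With the replicate number as a block the member counts were 0 and 0. Deviations of same-numbered WT and KO libraries from their group means correlated at -0.21, 0.22 and 0.05 across genes. With 3 libraries per group, these values cannot decide whether the numbers pair the lines. Over all tested genes, the block took those past the unadjusted threshold from 1536 to 1762. The smallest adjusted p went from 0.261 to 0.0972 (limma). Precision was limited by the 3 lines per group, and most for *DSG1*, with a within-group SD of 2.30.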

Other observations

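*DSG4*, the desmoglein of the hair shaft, was expressed in all 6 HaCaT lines, at 39.7, 13.6 and 35.5 FPKM in the WT and at 16.2, 28.5 and 14.2 FPKM in the KO lines. It lay above *DSG1*, its neighbour on the chromosome, in WT replicates 1 and 2 and KO replicates 2 and 3, and below it in WT replicate 3 and KO replicate 1. Its order of the libraries was shared by 0.098% of tested genes and by none of the 10 members. The group difference was within the spread (log2 difference -0.51, 95% confidence interval -1.51 to 0.49, limma, adjusted p = 0.553).

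Among basal keratinocyte genes, *KRT15* was at 4432, 5188 and 2200 FPKM in the WT and at 1737, 2937 and 1352 FPKM in the KO lines (log2 difference -0.96, limma, adjusted p = 0.296). Its highest value was in WT replicate 2, a line low in *DSG1*, and its lowest in KO replicate 3, the line with the least *DSG1*.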
